A study of Caenorhabditis elegans with 4 samples.

Results

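PHA-4 is the FoxA transcription factor of the nematode Caenorhabditis elegans. FoxA proteins are forkhead factors that can bind DNA packed in nucleosomes, and PHA-4 is best known for giving cells a pharyngeal fate (the pharynx is the worm's feeding organ) and for acting in gut cells. C. elegans has 5 autosomes and an X chromosome. The outer parts of its autosomes, called arms, recombine often and are rich in repeats, whereas their centres recombine little and carry more of the conserved genes. Chromosome III is among these autosomes. The data set out here are its PHA-4 peaks, the regions at which immunoprecipitated DNA was enriched over input.

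The peaks were taken by position alone, as all entries of the deposited list whose chromosome is III. There were 1598 of them among 9165 in all, or 17.4% of the list, and none was left out. On the other autosomes the list held 1496 peaks on I, 1562 on II, 1563 on IV and 1235 on V. The assay was ChIP-seq, the sequencing of immunoprecipitated chromatin, and the list rests on 2 ChIP libraries and 2 input libraries, with 1 of each per replicate. All 4 came from hermaphrodite late embryos of strain OP37, kept at 20 °C and fixed in 2% formaldehyde. Every animal, and so every input library too, carried unc-119(ed3), a mutation on chromosome III. Every animal also carried wgIs37, a transgene brought in by bombardment that restores unc-119(+) and makes PHA-4 fused to TY1, EGFP and 3xFLAG tags. The precipitated protein is therefore the tagged product of the transgene, in 1 strain, and no strain without it was described in the labels. A goat antibody against GFP was used for the precipitation.

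The list is combined over the replicates. It gives a position and a q-value for each peak and no tag counts, so the depth behind a peak is unknown and no value has an error between replicates. The q-values are those of the authors' caller and served here to rank and describe peaks within this list. Coordinates are positions in build WS180. Genes and DNA sequence at the peaks were not analysed here, because the gene table used belongs to another build. The rule that picks the peaks uses no q-value or width, and their density, width, q-value and spacing were compared with those on I, II, IV and V. Chromosome III was, however, singled out with earlier results of these data known, so the tests are not independent of that choice.

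Comparisons were made over blocks of about 100 kb. There were 137 such blocks on III and 686 on the other 4 autosomes, and the parts of a chromosome are made of whole blocks. Intervals are 95% intervals from the fits across blocks. They cover variation along chromosomes and not variation between embryos. Adjusted p-values are by the Benjamini-Hochberg method over 16 tests, with a threshold of 0.05. Counts in adjacent blocks of III were correlated at r = 0.21, and at r = 0.16 to 0.38 on the other autosomes. Such blocks are not fully independent, so p-values may be too small. Fits with longer blocks are given where they end a call.

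PHA-4 peaks were denser on chromosome III than on the other autosomes, and no block of III was without a peak. Chromosome III held 116 peaks per Mb, against 85.4 per Mb on I, II, IV and V together. Its blocks held 11.7 ± 5.01 peaks (SD, 137 blocks), against 8.54 ± 5.17 (SD, 686 blocks) on the others. The ratio of densities was 1.36 (1.24 to 1.50, quasi-Poisson regression, n = 137 and 686 blocks, adjusted p = 2.94e-09). Peaks covered 3.92% of the span of III, against 3.15% of the span of the other autosomes. Empty blocks numbered 0 on III and 18 on the others, with 1 on I, 1 on II, 3 on IV and 13 on V. Blocks with at most 5 peaks made up 10.9% of III, against 14.7% of I, 23.5% of II, 26.4% of IV and 48.8% of V.

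Taken singly, the other autosomes lay at different distances below III. Chromosome II had 102 peaks per Mb, I had 99.9, IV had 89.6 and V had 59.1. By quasi-Poisson regression, the density of III (n = 137 blocks) was 1.97 times that of V (1.74 to 2.22, adjusted p = 5.69e-25). It was 1.30 times that of IV (1.16 to 1.45, n = 174 blocks, adjusted p = 2.60e-05). Against I the ratio was 1.16 (1.04 to 1.30, n = 150 blocks, adjusted p = 0.0134), and against II it was 1.14 (1.01 to 1.27, n = 153 blocks, adjusted p = 0.0337). The calls against I and II ended with 500 kb blocks, which left the ratios unchanged. Without V among the other autosomes, the pooled ratio was 1.20.

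The left arm, centre and right arm were set here by position alone, by cutting the span of peaks into parts of about equal length. Measured limits of recombination or repeats were not used, so these parts only approximate the arms and centres described above. On III they took 46, 45 and 46 blocks. The left arm ran from 25588, the start of the first peak, to 4640985 and held 458 peaks, or 99.2 per Mb. The centre ran from 4640986 to 9156047 and held 628 peaks, or 139 per Mb. The right arm ran from 9156048 to 13771445, the end of the last peak, and held 512 peaks, or 111 per Mb. Peaks were thus densest in the centre and sparsest in the left arm. The centre exceeded the left arm 1.40-fold (1.18 to 1.66, quasi-Poisson regression, n = 45 and 46 blocks, adjusted p = 0.000362). It exceeded the right arm 1.25-fold (1.06 to 1.48, n = 45 and 46 blocks, adjusted p = 0.0109), a call that ended with 500 kb blocks (1.24-fold). The right arm was 1.12 times as dense as the left (0.936 to 1.34, n = 46 blocks each, adjusted p = 0.232), a difference that did not pass.

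Each part of III was set against the same kind of part elsewhere. Its left arm was denser than the arms of the other autosomes, at 99.2 against 73.9 peaks per Mb. The ratio was 1.34 (1.13 to 1.59, quasi-Poisson regression, n = 46 and 458 blocks, adjusted p = 0.00123). The right arm exceeded those arms 1.50-fold (1.28 to 1.77, n = 46 and 458 blocks, adjusted p = 6.77e-06). The centre of III had 139 peaks per Mb and the other centres 108 per Mb, a ratio of 1.28 (1.12 to 1.47, n = 45 and 228 blocks, adjusted p = 0.000599). Among single chromosomes, with left set against left and right against right, III had the highest density of the 5 autosomes in all 3 parts. The next highest were IV in the left arm (93.1 per Mb), II in the centre (134 per Mb) and II in the right arm (102 per Mb). Left and right are conventions of the map, however, and the right arm of II was denser than the left arm of III. No part was tested against that of a single chromosome, and in the centre the lead of III over II was small. Without a stretch of 28 peaks described below, the centre of III had 136 peaks per Mb. The calls for the left arm (1.34) and the centre (1.31) ended with 1 Mb blocks, and that for the left arm also ended without V (1.16). The centre-to-arm ratio of III was 0.903 times that of the other autosomes (0.749 to 1.09, n = 137 and 686 blocks, adjusted p = 0.283), so that a difference in this ratio was not detected.

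**Figure D1:**
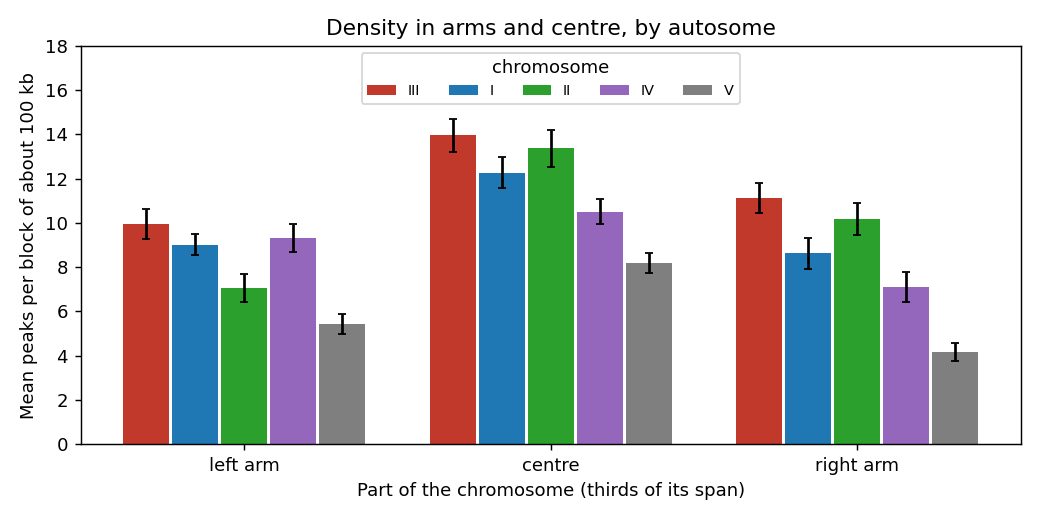
Mean number of peaks per block of about 100 kb (vertical axis) in the left arm, centre and right arm of each autosome (colours). The parts were cut by position, at about equal lengths of the span of peaks. Bars are means over blocks and error bars are standard errors over blocks. In all 3 parts the bar of III is the highest, at 9.96, 13.96 and 11.1 peaks per block, and that of V is the lowest. In the centre the bar of II, at 13.4, lies close to that of III.

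Along the chromosome, density rose and fell over stretches of a few Mb. In 14 windows of about 1 Mb (each 0.982 Mb long) the counts from left to right were 104, 71, 81, 113, 119, 161, 135, 112, 153, 124, 128, 88, 97 and 112 peaks. The highest window, from 4934823 to 5916669, had 164 peaks per Mb, and a second maximum of 156 per Mb lay from 7880364 to 8862210. Between them the counts were 135 and 112. The window with 135, from 5916670 to 6898516, took in all 28 peaks of a stretch described below, from 6073763 to 6141790. Where the lowest count between the maxima falls thus depends on that stretch, and the profile was not tested. The lowest window, from 1007435 to 1989281, had 72.3 peaks per Mb, less than any other window of III but more than V had on average.

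Single blocks of about 100 kb ranged from 1 to 28 peaks on III, with a median of 12. The 3 densest were in the centre from 6045672 to 6146006 with 28 peaks, at the right end from 13671111 to 13771445 with 23, and in the centre from 5142659 to 5242993 with 22. Those at the right end scored well, with a median −log10 q of 9.27 and a best q-value of 1.68e-57. Blocks with 20 or more peaks numbered 9 on III, 6 on I, 12 on II, 4 on IV and 0 on V. Of the 9 on III, 7 were in the centre, 2 in the right arm and 0 in the left arm. The 3 emptiest blocks all lay in the arms. They were at 1430274 to 1530608 and 12768099 to 12868432, with 1 peak each, and at 226257 to 326591 with 3 peaks, tied with 2 further blocks.

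**Figure D2:**
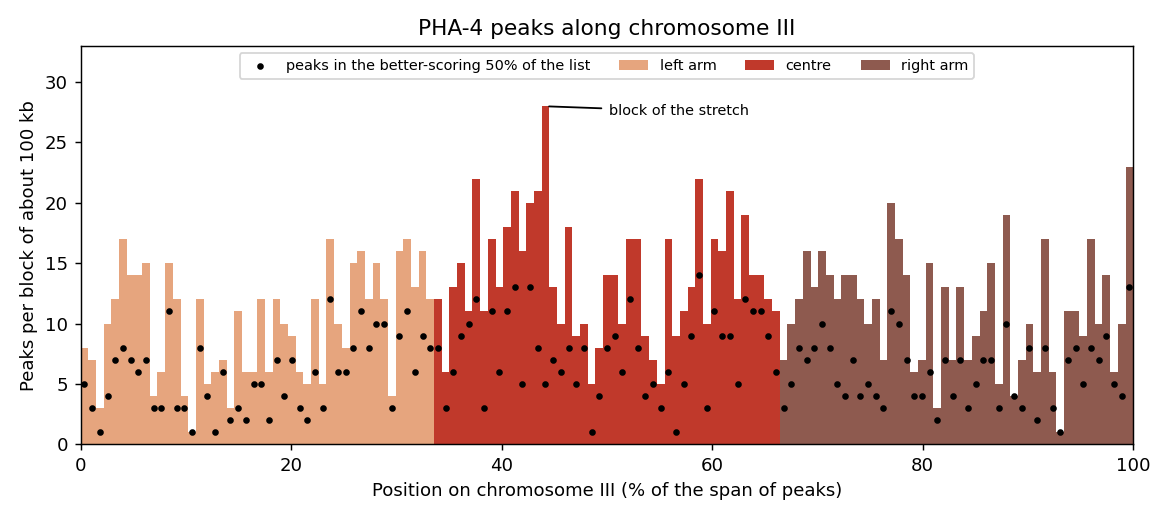
Peaks per block of about 100 kb (vertical axis) along chromosome III, with position as a percentage of the span of peaks (horizontal axis). Bars give all peaks, coloured by part, and black points give those in the better-scoring 50% of the whole list. The tallest bar, with 28 peaks in the centre, has a point at 5.

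The block with 28 peaks differed in score from the other dense blocks. The span of its peaks, 68.0 kb from 6073763 to 6141790, is the stretch described here. Their best q-values were 1.35e-08 at 6101883 to 6102246, 1.66e-08 at 6116504 to 6116780 and 3.39e-07 at 6095335 to 6095881. Their median −log10 q was 3.12, against 6.57 over all of III, and it was the lowest among the 31 autosomal blocks with 20 or more peaks. The next lowest was 3.52, in the last block of I. Of the 28 peaks, 5 (17.9%) ranked among the better-scoring 4582 of the list, and 0 ranked among the best 10%. The dense block of III from 8453705 to 8554039, with 21 peaks, also had 0 in the best 10%.

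Against all of III, peaks of the stretch were also narrow. They lay close together, which follows at least in part from the choice of the densest block of III. Their median width was 195.5 bp, against 287.5 bp on all of III, and 15 of the 28 (53.6%) were under 200 bp. Peaks of III ranked below the better-scoring 4582 of the list were much the same. Their median width was 193 bp, and 53.4% were under 200 bp. Width thus did not set the stretch apart from other poorly scoring peaks of III. In the stretch, midpoints of neighbours lay a median of 1331 bp apart, against 4070 bp on III. The next peak to the left ended 41370 bases away, and the next to the right began 4857 bases away. The part that DNA copy number or mapping plays in this stretch was not tested, since the list holds no tag counts.

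Chromosome III was described with and without this stretch. Without it, 1570 peaks remained at 115 per Mb, and the ratio to the other autosomes was 1.35 (1.22 to 1.48, quasi-Poisson regression, n = 136 and 686 blocks, adjusted p = 1.22e-08). The centre then held 136 peaks per Mb, at 1.37 times the left arm (n = 44 and 46 blocks, adjusted p = 0.00071) and 1.23 times the right arm (adjusted p = 0.0217). Its ratio to the other centres was 1.25 (1.10 to 1.43, n = 44 and 228 blocks, adjusted p = 0.00188). The median width was 289 bp, the median −log10 q 6.77 and the median distance 4105 bp. The stretch lies in the centre, so the ratios of the arms of III to other arms and to each other could not change. None of the 16 tests changed its side of the threshold without the stretch. The density of III against II lay just under it, at a ratio of 1.12 (1.004 to 1.26, quasi-Poisson regression, n = 136 and 153 blocks, adjusted p = 0.0487). The variance of block counts was 2.16 times their mean on III with the stretch and 2.02 times without it, against 2.21 on I, 3.34 on II, 2.72 on IV and 2.73 on V.

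**Figure D3:**
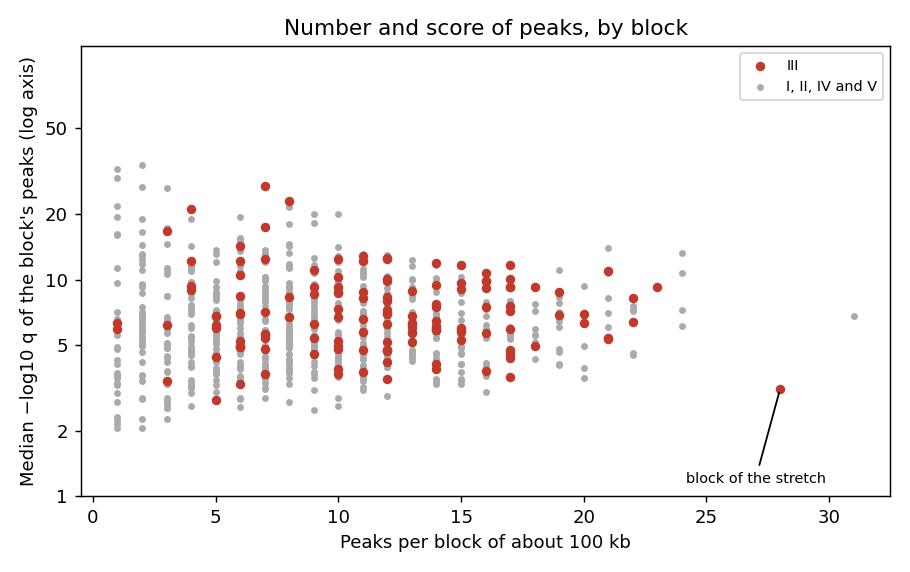
Number of peaks in each autosomal block of about 100 kb (horizontal axis) against the median −log10 q of these peaks (vertical axis, log scale). Blocks of III are red and those of I, II, IV and V grey. The block of the stretch, with 28 peaks and a median of 3.12, lies below the other blocks with 20 or more peaks.

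Apart from that stretch, how many peaks a block held said little of how well they scored. Across the 137 blocks of III, Spearman's rho between the number of peaks and their median −log10 q was -0.02, and it was 0.00 without the stretch. These blocks share their libraries, so the value is a description only. Better-scoring and poorer-scoring peaks did vary together, with rho = 0.36 between the number of peaks from the better-scoring 50% of the list and the number from the poorer-scoring 50%.

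Better-scoring peaks made up a somewhat larger share of the peaks on III. Of its 1598 peaks, 870 (54.4%) were among the better-scoring 4582 of the list, beside 50% of the list as a whole and 49.6% of the peaks on the other autosomes. Chromosomes I and II were nearer to III, at 51.1% and 51.0%, than IV and V, at 48.5% and 47.4%. Of the peaks on III, 179 (11.2%) were in the best 10%, beside 9.99% of the whole list, and 46 (2.88%) had a q-value below 1e-50, beside 2.32%. The shares in the better-scoring 50% and below 1e-50 were not tested. The median −log10 q was 6.57 on III and 5.89 on the other autosomes together (6.03 on I, 6.15 on II, 5.73 on IV and 5.55 on V). In a linear model of log2 of −log10 q per block, III was higher by 0.13 (0.06 to 0.21, n = 137 and 668 blocks with peaks, adjusted p = 0.000599), a 1.10-fold difference in −log10 q. Among the better-scoring 50% alone it was smaller, at 0.042, and did not pass. That class is set by the q-value itself, so this is no separate check.

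The share of peaks in the best 10% was 11.2% on III against 9.41% on the other autosomes. The odds ratio was 1.21 (1.01 to 1.46, quasi-binomial regression, adjusted p = 0.0462). This call was close to the threshold and ended under most alternatives, among them the removal of V (1.13). The single other autosomes had 11.0% on I, 10.4% on II, 8.77% on IV and 6.96% on V. Within III the share was 12.0% in the left arm, 11.0% in the centre and 10.7% in the right arm, with 55, 69 and 55 such peaks. Per Mb this made 11.9 in each arm and 15.3 in the centre.

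Peaks of the best 10% were spread widely along III. They were present in 100 of its 137 blocks (73.0%), against 327 of the 686 blocks on the other autosomes (47.7%), with 58.7% on I, 58.2% on II, 87 of 174 blocks on IV and 30.1% on V. By part of III, 32 of 46 blocks had such a peak in the left arm, 35 of 45 in the centre and 33 of 46 in the right arm. The longest stretch of III without a peak of the best 10% ran over 305 kb, from 2966900 to 3271603. On the other autosomes the longest such stretch measured 751 kb on IV, 765 kb on I, 957 kb on II and 2789 kb on V. No test was made of these values, which also depend on density.

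The leading peaks of III lay in all 3 parts. Its best q-value, 3.75e-199, belonged to a peak of 1084 bp in the centre, from 8416928 to 8418011, which ranked 3 in the whole list. The second, in the right arm from 12612193 to 12615770, had a q-value of 4.26e-196 and was also the widest of III, at 3578 bp. The third, from 13060915 to 13063186 in the right arm, had a q-value of 1.77e-185 and a width of 2272 bp. The best of the left arm was a narrower peak of 971 bp at 1920851 to 1921821, with a q-value of 2.54e-157 and rank 13 in the list.

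In the centre, 3 of the 7 leading peaks of III lay within about 8 kb of each other. The first ran from 8794321 to 8796143 and had a q-value of 4.68e-130. The second, from 8799676 to 8800969, had 3.25e-151, and the third, from 8801277 to 8802666, had 4.67e-168. Only 307 bases separated the last pair, so these calls lie side by side. The leading peak in the left arm also had a neighbour of the best 10% nearby, with a q-value of 1.99e-83, and the peak at 13060915 had another within 10 kb, with a q-value of 1.63e-79.

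After the 7 leading peaks the q-values were larger. The remaining 3 of the 10 were all in the left arm. The best of them lay from 3801158 to 3802024, with a q-value of 4.19e-96 and rank 48 in the whole list. The next lay from 4281859 to 4282824 (9.31e-93, rank 55) and the last from 4237551 to 4238242 (1.58e-90, rank 58). The best remaining peak of the right arm lay from 10758838 to 10759398, with a q-value of 1.42e-80. The other peaks among the 3 widest of III were in the centre. One, of 3063 bp, ran from 7727441 to 7730503 (q = 1.94e-85), and the other, of 2814 bp, from 5565434 to 5568247 had a q-value of only 4.17e-36 and rank 91 on III.

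As a share of the top of the list, III was high among its first entries and then settled. It held 4 of the 10 best peaks and 6 of the 20 best, but 8 of the 50 best, as many as II. These counts are small and were not tested. Among the 6, the peaks that begin at 8799676 and 8801277 lie only 307 bases apart. Of the 200 best, III held 43, against 25 on I, 34 on II, 31 on IV and 12 on V. Of the 916 peaks in the best 10% it held 19.5%, beside 17.4% of all peaks.

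The surroundings of the 10 leading peaks were compared with those of the other good peaks without a test. Within 10 kb of them lay from 2 to 8 further peaks, against a median of 3 for all peaks of III. At least 1 further peak of the best 10% lay in that window for 8 of the 10, of which the 3 between 8794321 and 8802666 count each other. The same held for 57 of the 179 peaks of the best 10% on III (31.8%), against 31.6% on the other autosomes. Over all peaks of any score, the share was 29.5% on III and 24.2% on the other autosomes. The nearest peak to each of the 10 was between 307 and 1595 bases away. Over all 179 peaks of the best 10% on III, the median gap to the nearest peak was 1265 bases, within the range of the other autosomes (1148 on II to 1580 on I).

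Although they scored slightly better, peaks on III were narrower. The median width was 287.5 bp on III (quartiles 199 and 398 bp), against 311 bp on the other autosomes together (221 and 436 bp). Medians were 309 bp on I, 294 bp on II, 308 bp on IV and 339 bp on V. In a linear model of log2 width per block, the difference of III from the others was -0.17 (-0.25 to -0.10, n = 137 and 668 blocks with peaks, adjusted p = 1.57e-05), which is a ratio of 0.887. In the best 10% of the list the difference was -0.13 and did not pass.

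Median widths on III were the lower ones at each level of score. Among the best 10% the median width was 572 bp on III and 628 bp on the other autosomes. In the rest of the better-scoring 50% it was 343 bp on III and 378 bp on the others, and in the poorer-scoring 50% 193 bp on III and 224 bp on the others. In all 3 classes III had the lowest median of the 5 autosomes, and these values were not tested class by class. By part of III, the overall median was 295 bp in the left arm, 277.5 bp in the centre and 298.5 bp in the right arm. All were below the 311 bp of the other autosomes. The left arm and centre of II, however, had lower medians than both arms of III, at 283 and 293.5 bp. The left arm of IV, at 297 bp, was below the right arm of III. Width was not tested against single autosomes.

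Narrow calls were frequent among the poorer-scoring peaks. On III 401 peaks (25.1%) were under 200 bp, against 19.3% on the other autosomes and 24.1% on II alone. A further 36 (2.25%) were exactly 200 bp, against 1.57% on the other autosomes. The median −log10 q of the 401 was 2.76, against 9.25 for peaks of 200 bp or more. Peaks under 10 bp numbered 23 on III (1.44%), against 76 (1.30%) on the other autosomes, and the best of those on III had a q-value of 0.000215. At the other end, 39 peaks (2.44%) exceeded 1 kb, against 2.92% on the other autosomes. They numbered 9 in the left arm, 13 in the centre and 17 in the right arm. Width and −log10 q rose together across the peaks of III (Spearman's rho = 0.83), as they did on the other autosomes (0.67 on V to 0.81 on II).

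**Figure D4:**
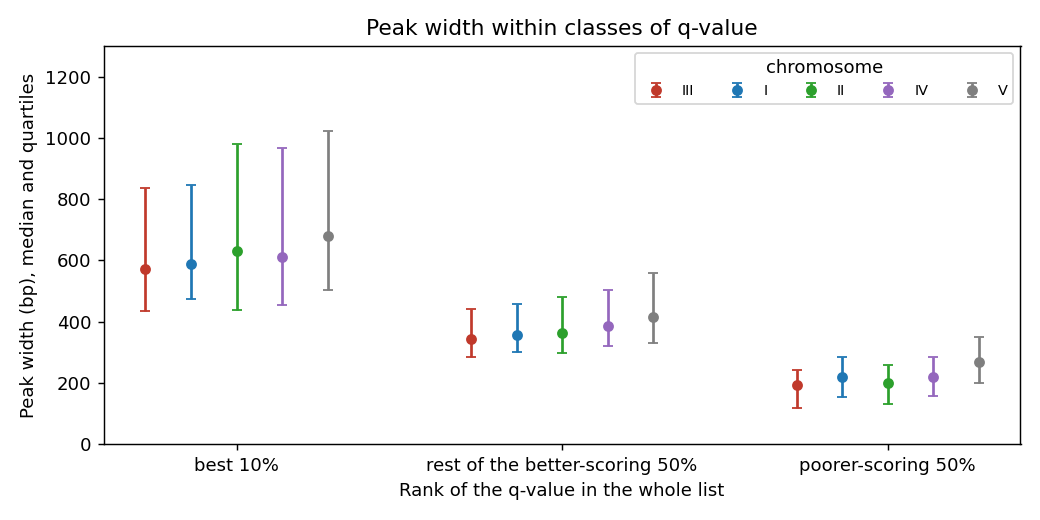
Peak width in bp (vertical axis) by autosome (colours) within 3 classes of q-value rank in the whole list (horizontal axis). Points are medians and bars run between the quartiles. The medians of III, at 572, 343 and 193 bp, are the lowest of the 5 autosomes in each class.

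Neighbouring peaks lay closer together on III than on the other autosomes pooled. Their midpoints were a median of 4070 bp apart on III, against 4784 bp on the others. In a linear model of log2 distance per block, the difference of III from the others was -0.23 (-0.36 to -0.10, n = 137 and 668 blocks with peaks, adjusted p = 0.00112), a ratio of 0.852. This call ended without V, where the difference was -0.12, and with 1 Mb blocks. Spacing and density carry much of the same information. Medians of single autosomes were 3989 bp on IV, 4206 bp on II, 5248 bp on I and 6718 bp on V, so that III was not the lowest.

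Shares of short and long distances were compared without a test. On III 11.0% of distances were under 1 kb, against 11.1% on the others, and 54.4% were under 5 kb, against 50.9%. Distances over 30 kb made up 5.26% on III, against 6.69% on I, 8.58% on II, 9.67% on IV and 16.4% on V. The 3 longest stretches of III without any peak were at 1308547 to 1413654 (105 kb), 12727411 to 12818319 (90.9 kb) and 235553 to 311213 (75.7 kb), all in the arms. The longest distance between midpoints on each of the other autosomes was 156 kb on II, 198 kb on I, 234 kb on IV and 293 kb on V. Within III, distances over 30 kb made up 7.42% in the left arm, 3.18% in the centre and 5.87% in the right arm, and median distances were 5039, 3547 and 4001 bp.

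**Figure D5:**
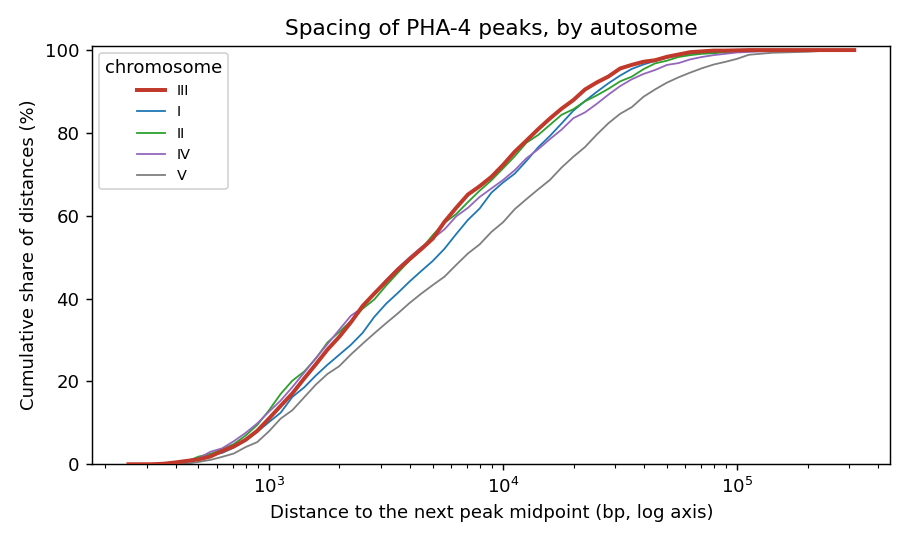
Cumulative share of distances between neighbouring peak midpoints (vertical axis, %) by distance in bp (horizontal axis, log scale) for each autosome. The curve of III (thick red) runs close to those of II and IV at short distances, with 54.4% under 5 kb, and reaches its top at shorter distances than the others, with 5.26% over 30 kb.

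The share of peaks in short runs on III lay within the range of the other autosomes. Runs were taken as peaks with at most 1000 bases between neighbours. They took in 558 peaks of III (34.9%), against 32.0% on I, 38.3% on II, 39.3% on IV and 30.1% on V. Of the 230 runs on III, 23 had 4 or more peaks and the longest had 5 peaks. Runs of 4 or more numbered 16 on I, 31 on II, 23 on IV and 13 on V, and the longest had 7 peaks on I, 11 on II, 7 on IV and 5 on V. Of the 23 on III, 4 began in the left arm, 11 in the centre and 8 in the right arm, and 2 of the 11 lay inside the stretch from 6073763. The widest peak of III was part of a run of 4 from 12611405 to 12617370. No 2 peaks of III were separated by fewer than 200 bases, the same smallest gap as on each of the other autosomes.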

How the data were processed

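The peaks were called with PeakSeq on WormBase build WS180, per the file headers and the caller's name in the deposited list. The q-value of each peak is the authors' own and is the only measured value in the deposited list used here. Not given in the sources used here are the aligner, the versions, the tag extension and the pooling of libraries. Depth is unknown. No list was trimmed. The chromosome, its parts, the stretch and the features named were chosen with earlier results of these data known.

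Each autosome's span, from first peak start to last peak end, was cut into equal blocks of about 100 kb, and peaks were placed by midpoint. The centre comprised the blocks whose midpoints fell in the middle 33.3% of the span. Counts were fitted by quasi-Poisson regression with block length as offset, shares by quasi-binomial regression, and mean log2 width, −log10 q and distance by linear models weighted by peak number (two-sided, statsmodels 0.14.6), adjusted over 16 tests. Features named were the 10 best q-values of III, the 3 best of each part and of the stretch, the 3 widest peaks, the 3 densest and emptiest blocks and the 3 longest empty stretches. Among blocks or peaks tied in rank, the first by position was taken. Alternatives were 500 kb and 1 Mb blocks, the better-scoring 50% and the best 10% of the list, removal of the widest 5%, of V, of end blocks or of the stretch, merging over at most 1000 bases, and a centre of 50%.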

Additional observations from a re-analysis of the deposited data

How the results depend on the processing

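Of 143 recomputed values, 117 gave the same answer as in the text, and 26 had the same direction but no longer passed. Among the 117 are some that could not change, such as the arms of III against other arms without the stretch. No direction turned. The density of III against the other autosomes passed in every alternative run for it (ratio 1.20 to 1.62), as did that against IV (1.28 to 1.66), V (1.89 to 3.16) and that of the right arm against other arms (1.30 to 1.83). With 500 kb blocks, calls ended for density against I (1.16) and II (1.14), centre against right arm (1.24) and the odds of the best 10% (1.21). With 1 Mb blocks they ended for I (1.16), II (1.14), centre against right arm (1.28), left arm against other arms (1.34), centre against other centres (1.31), the best 10% (1.21) and spacing (-0.23 on the log2 scale); longer blocks are fewer by construction. In the better-scoring 50%, −log10 q (0.042 on the log2 scale) and the best 10% (1.11) no longer passed. In the best 10% of the list, which holds 179 peaks of III, the same went for I (1.18), II (1.22), centre against left arm and against right arm (1.28 each), centre against other centres (1.38), width (-0.13), −log10 q (0.068) and spacing (-0.40). There each arm held 55 peaks, a ratio of 1. Without V, left arm against other arms (1.16), the best 10% (1.13) and spacing (-0.12) no longer passed. The best 10% also lost its call after merging (1.21) and without end blocks (1.21). Why these calls ended was not tested. The alternatives for −log10 q and the best 10% within classes set by q-value are no separate check of those results. No paired analysis was possible because no value in the list belongs to a single library, and leaving out a replicate was not run for the same reason. Depth limits cannot be given without tag counts.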

Other observations

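Few peaks under 200 bp ranked in the upper part of the list, and most that did lay on III. On the 5 autosomes, 16 peaks under 200 bp ranked among the better-scoring 4582 of the list, and 12 of them were on III, 2 on I, 1 on II, 1 on IV and 0 on V. The 12 made up 1.74% of the 691 peaks of III between the best 10% and the middle of the list, against 0.17% of 2353 such peaks on the other autosomes. Their −log10 q lay between 5.94 and 7.83, with 9 of the 12 below the median of 6.57 over all of III and 0 in the best 10%. They were 114 to 199 bp wide, 6 of them at least 190 bp and so close to the limit of 200 bp, with 3 in the left arm, 8 in the centre and 1 in the right arm. The best of them, from 3854927 to 3855106, had a q-value of 1.48e-08. A pair in the centre, at 5190274 to 5190429 and 5190753 to 5190893, lay in the block of 22 peaks that begins at 5142659. The single peak of an otherwise empty block in the right arm, at 12818320 to 12818517, was also among them, and 1 lay in the stretch that begins at 6073763. These peaks were singled out after their values were seen, and no test was made.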
